A study of Mus musculus with 11 samples.

Results

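Selenbp1 and Selenbp2 are 2 of 55416 gene identifiers measured in the mouse liver cancer cell line EC4. Selenbp1 was chosen by its very large rise in cells labelled MYC high at 10 µM methionine, and Selenbp2 was added as its close paralog. Both were among the 12909 genes whose normalized counts averaged 10 or more over the libraries, which entered the tests. Both passed that limit through the MYC high libraries at 10 µM alone, so their difference there had to appear: the 8 other libraries averaged 6.72 for Selenbp1 and 0.622 for Selenbp2.

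The polyadenylated RNA of 11 libraries was sequenced after 24 h in DMEM. The groups were MYC high (genotype MYC on) and MYC low (MYC off), each with 200 µM methionine, the amount in which all cells were grown, or 10 µM. The MYC high group at 200 µM held 2 libraries, numbered 2 and 3, and each other group held 3. All come from 1 cell line, and how MYC was switched is not given in the sources used here. The design asks whether the response to scarce methionine depends on the MYC state.

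SELENBP1 is a methanethiol oxidase. Methanethiol is a volatile sulfur compound formed in the breakdown of methionine, and the enzyme converts it to hydrogen sulfide, hydrogen peroxide and formaldehyde. Loss of the human gene causes a cabbage-like breath odour, and liver and colon are known for high levels of the protein. Despite its name, the protein holds no selenocysteine; it binds selenium in another way. Selenbp2 is a mouse paralog that was first described in liver as a protein that binds acetaminophen.

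The pair is nearly identical in sequence, which bears on how its reads can be assigned. In the GENCODE M21 annotation of the earlier build GRCm38, Selenbp1 (ENSMUSG00000068874) has 5 transcripts and Selenbp2 (ENSMUSG00000068877) has 7. The transcript that carries the lowest number in each gene's names is 1712 bases long for Selenbp1 and 1719 for Selenbp2. These 2 were compared. The alignment was 98.1% identical, with 25 substitutions and 7 gap columns. The coding sequences were 1419 bases each and differed at 18 positions, an identity of 98.7%. The longest stretch without any difference was 193 bases, from base 946 to base 1138 of both transcripts and wholly coding. It is shown because a read that falls inside it fits both genes equally well.

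shared coding stretch: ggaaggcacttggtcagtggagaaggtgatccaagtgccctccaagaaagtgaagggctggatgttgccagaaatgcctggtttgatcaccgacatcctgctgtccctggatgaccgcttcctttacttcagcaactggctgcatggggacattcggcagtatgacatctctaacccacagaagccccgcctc

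Of the 1613 windows of 100 bases in the Selenbp1 transcript, 21.3% were found without a mismatch in a Selenbp2 transcript, and 66.8% with no more than 1 mismatch. For windows of 150 bases these shares were 7.0% and 40.3%, and for windows of 50 bases 52.3% were shared without a mismatch. Seen from Selenbp2, 21.2% of 100-base windows were shared exactly. No other gene of that annotation held an exact stretch of 50 bases of either transcript. The read length, and what was done with reads that fit both genes, is not given in the sources used here.

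**Figure D1:**
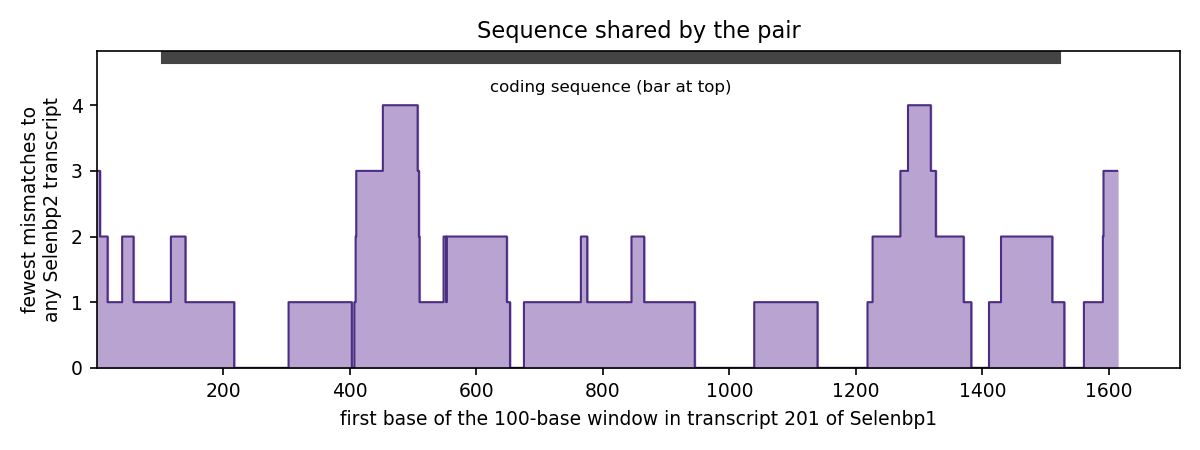
Fewest mismatches between each 100-base window of the Selenbp1 transcript (x axis, first base of the window) and any Selenbp2 transcript (y axis, number of bases), with the coding sequence as a bar at the top. Windows at 0 make up 21.3% of all windows, and no window of the compared stretch has more than 4 mismatches.

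The sequences just before the start sites are printed because both genes rose together in 1 group. They are the 250 bases before each start in RefSeq, build GRCm38.p6, on the plus strand of chromosome 3, at chr3:94932833-94933082 for Selenbp1 and chr3:94693323-94693572 for Selenbp2. Capitals mark the bases that differ between the aligned pair: substitutions in both, and inserted bases in Selenbp2.

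Selenbp1 promoter: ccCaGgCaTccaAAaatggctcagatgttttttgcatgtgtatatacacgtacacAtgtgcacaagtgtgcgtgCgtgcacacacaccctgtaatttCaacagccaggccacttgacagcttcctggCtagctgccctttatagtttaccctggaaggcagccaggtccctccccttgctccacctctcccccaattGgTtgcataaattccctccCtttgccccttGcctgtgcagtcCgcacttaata

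Selenbp2 promoter: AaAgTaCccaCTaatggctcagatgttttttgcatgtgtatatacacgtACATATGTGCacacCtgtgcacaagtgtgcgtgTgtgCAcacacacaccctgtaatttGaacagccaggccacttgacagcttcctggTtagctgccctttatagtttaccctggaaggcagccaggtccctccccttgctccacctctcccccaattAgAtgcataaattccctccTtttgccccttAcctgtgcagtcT

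The alignment was 89.2% identical over 250 columns, with 15 substitutions and 12 gap columns. A further 12 bases at the ends of the Selenbp1 window had no partner in the Selenbp2 window. Short motifs were searched on both strands from 250 bases before to 50 bases after the start, in these and in all 32851 promoters of the RefSeq table. ACGTG, a core of the hypoxia response element, occurred once in each promoter, its first base at −204 from the start in Selenbp1 and at −206 in Selenbp2, and was found in 19.6% of all promoters. GCGTG, the other form of that core, occurred at −181 and −177 in Selenbp1 and at −173 in Selenbp2, and was found in 32.4% of promoters. CACGTG, the E-box known as a binding sequence of MYC, which contains ACGTG, was not in either window and was in 7.2% of promoters. TGATGNAA, the C/EBP-ATF response element, and TGACNNNGC, the core of the antioxidant response element, were likewise in neither window and in 4.0% and 12.4% of promoters. A match describes the letters alone.

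Reads on genes ranged from 10858936 to 13085689 per library, so that 3 reads, the limit that a count of 0 allows, corresponded to 2.645 to 3.428 normalized counts. The mouse Myc transcript differed between the labels at 200 µM. It stood there at 2089 ± 106 (SD, n = 2) in MYC high and 1136 ± 31.3 (SD, n = 3) in MYC low cells (log2 difference 0.88, limma adjusted p = 5.99e-14). At 10 µM it was at 336 ± 39.2 and 336 ± 13.5 (SD, n = 3 each, limma adjusted p = 0.949), so there the names MYC high and MYC low rest on the labels. Whether the switched MYC is counted on this mouse gene is not given in the sources used here. Of 24 hepatocyte markers, 15 were at 0 in every library, and 2 had a mean of 10 or more over all libraries. Of 12 fetal liver and progenitor markers 7 reached that level, led by keratin and Spp1 transcripts.

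Selenbp1 was abundant in 1 group and close to the limit of detection in the other 3. The MYC high libraries at 10 µM held 1270, 1400 and 1293 normalized counts (1321 ± 69.0, SD, n = 3; 3906 reads in all). Those at 200 µM held 4.57 and 3.18 (3.88 ± 0.981, SD, n = 2; 7 reads). The MYC low libraries held 4.88, 8.19 and 1.94 at 200 µM (5.0 ± 3.13, SD, n = 3; 15 reads). At 10 µM they held 9.94, 11.4 and 9.70 (10.3 ± 0.911, SD, n = 3; 34 reads). The lowest MYC high library at 10 µM lay 112 times above the highest library of any other group, and the 3 values of that group had a coefficient of variation of 5.2%. From the highest to the lowest the order was MYC high at 10 µM, MYC low at 10 µM, MYC low at 200 µM and MYC high at 200 µM, and the last 2 overlapped.

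Selenbp2 was likewise high in that group alone, at a lower level. Its values in MYC high cells at 10 µM were 73.3, 82.0 and 73.9 normalized counts (76.4 ± 4.86, SD, n = 3; 226 reads). At 200 µM the MYC high values were 0 and 2.12 (2 reads in all). Those of MYC low cells were 0, 1.023 and 0 at 200 µM (1 read) and 0, 0.949 and 0.882 at 10 µM (2 reads). All 8 libraries outside the first group thus lay at or under the 3-read limit, and their order cannot be read. The lowest MYC high library at 10 µM was 34.6 times the highest of the others.

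**Figure D2:**
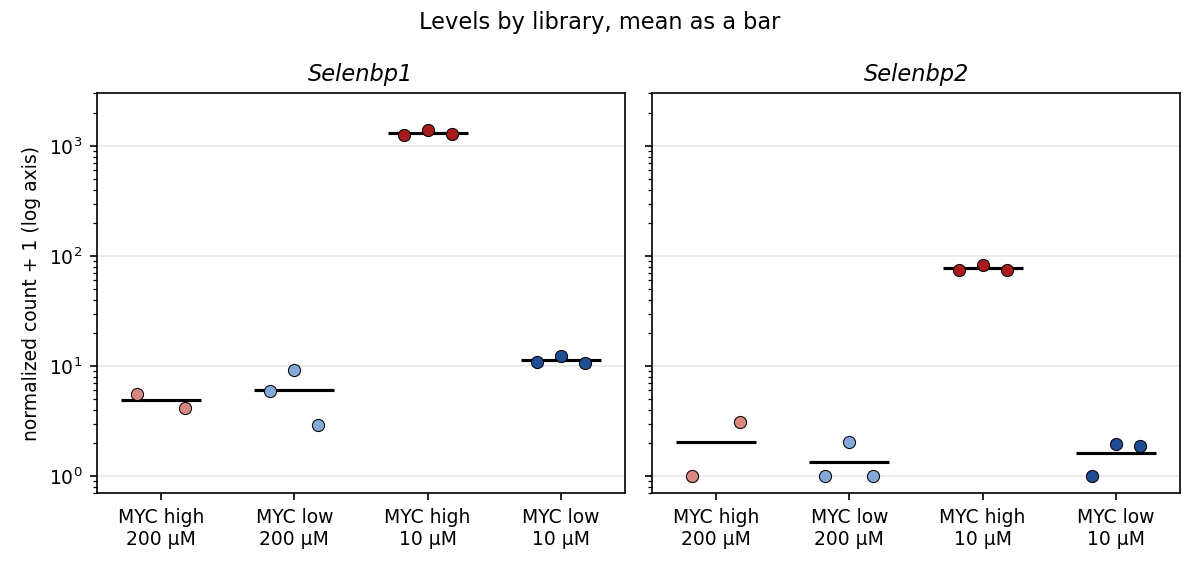
Normalized count + 1 (log axis) of Selenbp1 and Selenbp2 in each of the 11 libraries, by group, with the group mean of the normalized counts as a bar. The MYC high libraries at 10 µM sit at 1270 to 1400 for Selenbp1, and at 73.3 to 82.0 for Selenbp2, and no other library passes 11.4 and 2.12.

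Because the choice of the pair rests on them, the differences of MYC high cells at 10 µM are described and not tested. At 10 µM, Selenbp1 of MYC high cells was 128-fold that of MYC low cells by pooled reads (exact 95% interval 91.4 to 185), and 343-fold higher in MYC high cells at 10 than at 200 µM (166 to 854). The intervals cover counting error only. On the scale of log2(normalized count + 1), which understates the change of low genes, the differences were 6.87 (SE 0.28) and 8.10 (SE 0.31). The methionine difference in MYC high cells exceeded that in MYC low cells by 7.03 (SE 0.42). Selenbp1 ranked 1 of 12909 tested genes from the highest in all 3. For Selenbp2 the pooled reads gave 126-fold (34.5 to 1046) between the MYC states at 10 µM and 69.5-fold (19.01 to 577) between the media in MYC high cells, with both reads at 200 µM in replicate 3. Its log2 differences of 5.65 (SE 0.57), 5.45 (SE 0.64) and 5.17 (SE 0.86) ranked 4, 11 and 4. Without MYC high replicate 3 at 200 µM the last 2 were 6.27 and 5.99, and without replicate 2 they were 4.63 and 4.34.

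Broad change formed the background of these comparisons. Between MYC states at 10 µM, 35.7% of tested genes were higher in MYC high cells and 35.8% lower. Between the media 37.9% were higher and 37.9% lower at 10 µM in MYC high cells, and the interaction was positive in 31.0% and negative in 29.4%. Of all tested genes 16.5% had every MYC high library at 10 µM above every other library. A gap of 10-fold or more was found for 10 genes, the pair included, and one of 50-fold or more for Selenbp1 alone.

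Selenbp1 of MYC low cells was also higher at 10 than at 200 µM methionine. The 3 libraries at 10 µM held 11, 12 and 11 reads and those at 200 µM 5, 8 and 2. The log2 difference was 1.06 (SE 0.28, 95% interval 0.50 to 1.63, limma adjusted p = 0.00119), and the pooled reads gave 2.09-fold (1.11 to 4.13). Of all tested genes 29.4% were called higher in this comparison and 29.9% lower, and 97.0% had a smaller log2 difference than Selenbp1. Adjusted p over all alternatives ran from 2.73e-05 to 0.0349. On the recovered counts it was 0.0299 by edgeR and 0.0349 by DESeq2. Without MYC low replicate 3 at 200 µM, which had the 2 reads, the log2 difference was 0.62 (limma adjusted p = 0.029). The MYC low libraries at 10 µM were also the lower side of a comparison that chose the gene. Selenbp1 also entered this test through the MYC high libraries at 10 µM alone. Those libraries raised its mean, by which the trended fit sets the expected spread, so the limma p can be too small for counts this low. Selenbp2, with 2 reads against 1, did not pass (limma adjusted p = 0.689) and a change of that size was not detectable at this depth.

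At 200 µM methionine no difference between the MYC states was detectable for either gene. Selenbp1 had 7 reads in 2 MYC high libraries and 15 in 3 MYC low libraries, a ratio of 0.779 (exact 95% interval 0.269 to 2.03). Its log2 difference of −0.16 (SE 0.31, 95% interval −0.79 to 0.47) did not pass (limma adjusted p = 0.64). Selenbp2 had 2 reads against 1 and did not pass (limma adjusted p = 0.501). The MYC high libraries at 200 µM were also the lower side of the rise that chose the gene, and both genes entered the test through the MYC high libraries at 10 µM. In this comparison 36.8% of tested genes were higher in MYC high cells and 37.6% lower. The Selenbp1 value turned on single libraries: it was −0.61 with an adjusted p of 0.0415 by limma without MYC low replicate 3 at 200 µM. It was 0.22 without MYC low replicate 2 and 0.04 without MYC high replicate 3. The adjusted p over all alternatives ran from 0.0415 to 0.926.

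Selenbp2 took a small share of the reads of the pair, steady over the 3 libraries where the pair was abundant. In the MYC high libraries at 10 µM it held 5.46%, 5.54% and 5.41% of the reads on both genes (mean 5.47% ± 0.066, SD, n = 3). Pooled, that was 226 of 4132 reads, with an exact (Clopper-Pearson) 95% interval of 4.80% to 6.21%. Among the MYC low libraries at 10 µM it held 2 of 36 reads (5.56%, 0.68% to 18.7%). At 200 µM it held 2 of 9 reads in MYC high cells (22.2%, 2.81% to 60.0%). In MYC low cells at 200 µM it held 1 of 16 reads (6.25%, 0.158% to 30.2%). Over the 3 other groups together it held 5 of 61 reads (8.2%, 2.72% to 18.1%), so a different share there was not detectable at this depth. Per kb of these transcripts, Selenbp1 averaged 771.6 normalized counts and Selenbp2 44.5 in MYC high cells at 10 µM. Pearson's r of the pair over the 11 libraries was 0.9711 on the log2 scale, a description that rests on 3 high libraries. Whether the Selenbp2 reads are its own or come from Selenbp1 transcripts, whose 100-base windows match it with no more than 1 mismatch in 66.8% of cases, was not tested.

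**Figure D3:**
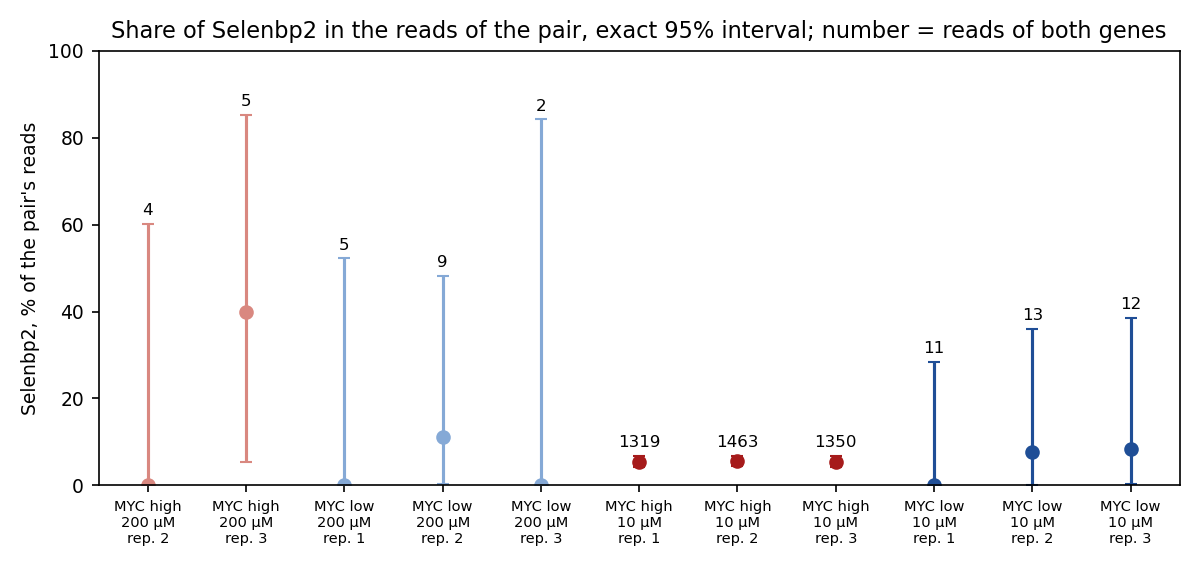
Selenbp2 as a percentage of the reads on both genes in each library (y axis), with exact 95% intervals and the number of reads of the pair printed above each. The MYC high libraries at 10 µM, with 1319 to 1463 reads, lie between 5.41% and 5.54%, and the other libraries, with at most 13 reads, have intervals that include those values.

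Set against all tested genes per kb of exons, Selenbp1 moved from the lowest levels to a high one. In MYC high cells at 10 µM its level was above that of 91.4% of 12859 tested genes with a length, and in the other groups above that of 1.5% to 3.4%. Selenbp2 was above 27.2% of genes in MYC high cells at 10 µM and above no more than 0.8% elsewhere. In such bulk RNA a larger number of expressing cells and more RNA per cell cannot be told apart.

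Marker lists of other cell types were read beside this rise. Of 12 colon epithelium markers, a tissue known for abundant SELENBP1, 4 were at 0 in every library; at 10 µM the summed level was 38.5 to 42.8 for MYC high and 53.3 to 69.7 for MYC low cells, and the latter was the highest of the 4 groups. The sums of hepatocyte (512 to 533), fetal liver (30800 to 32500), macrophage (1120 to 1200) and fibroblast markers (83.5 to 88.1) in MYC high cells at 10 µM were all below those of the MYC low libraries in that medium (600 to 635, 56100 to 57200, 1330 to 1430 and 114 to 150). The endothelial sums, nearly all Eng, overlapped at 84.6 to 95.2 and 67.4 to 85.9 at 10 µM. At 200 µM the MYC high sums were 344 to 347, 14100 to 14600, 665 to 686, 20.2 to 22.9 and 51.4 to 53.0 for these 5 lists in the same order, and 12.6 to 14.9 for colon. The part of such cells in the Selenbp1 level was not tested.

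The genes beside the pair on the chromosome did not share its size of change. RefSeq names 3 genes on each side, and the files hold 10 of these 12. Next to Selenbp1, Rfx5, a regulator of MHC class II genes, rose by 0.88 on the log2 scale at 10 µM in MYC high cells (SE 0.124, limma adjusted p = 7.26e-08). It also rose in MYC low cells (0.58, SE 0.111), and its interaction of 0.30 did not pass (limma adjusted p = 0.123). B230398E01Rik, a long noncoding RNA that overlaps Rfx5 on the other strand, rose by 1.05 and 0.40, and its reads cannot be told apart from those of Rfx5 without strand. Pi4kb, a phosphatidylinositol kinase gene, rose by 0.65 in MYC high cells, and Psmb4, a proteasome subunit gene, fell by 0.27. Next to Selenbp2, Cgn, the gene of the tight junction protein cingulin, rose by 1.46 in MYC high cells (SE 0.092) and 0.20 in MYC low cells, with a passed interaction of 1.25. Tuft1 differed by 0.22 in MYC high cells and did not pass (limma adjusted p = 0.0786). The 4 others in the files were too low to be tested, with no library above 13.5 normalized counts.

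Genes with the most similar pattern were found by Pearson's r with Selenbp1 over the 11 libraries, on the log2 scale, among 9737 other genes with a mean of at least 100. The libraries share their groups, so r is a description. Bnip3, the gene of a mitophagy receptor, came first (r = 0.9942), with 7197 ± 196 normalized counts in MYC high cells at 10 µM. It had 267 ± 8.55 in these cells at 200 µM, and MYC low cells had 470.5 ± 29.2 at 10 µM. Gpi1 (0.9917), glucose-6-phosphate isomerase, and Aldoa (0.9915), aldolase A, rose 4.67-fold and 4.17-fold between the group means of MYC high cells. Impa2 (0.9912), an inositol monophosphatase, and Khk (0.9911), ketohexokinase, had ratios of 5.47 and 4.5. Gm45507 (0.991) overlaps Bnip3 on the other strand, so its 32.6-fold ratio cannot be told apart from that of Bnip3. Prelid2 (0.9904), Gys1 (0.989), a glycogen synthase, Tnpo3 (0.9889), a nuclear import receptor, and Helb (0.9887), a DNA helicase, completed the 10, with ratios of 12.3, 3.69, 1.43 and 2.33. All 10 were thus alike in shape and far smaller in size than Selenbp1, whose ratio of means was 340.8.

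**Figure D4:**
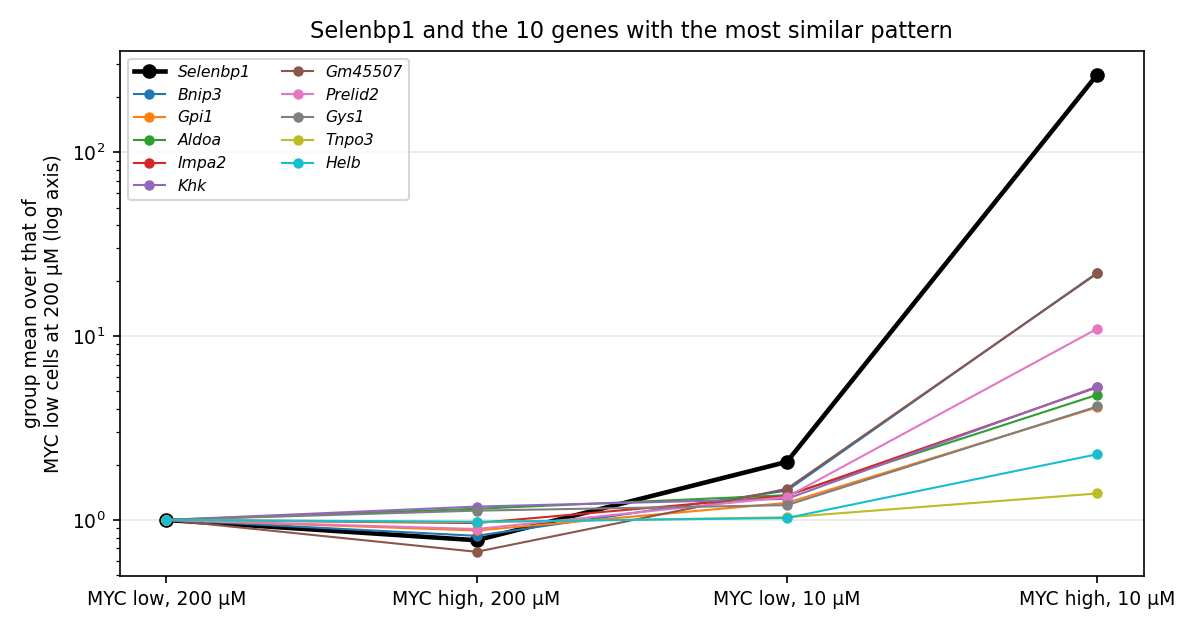
Group mean of Selenbp1 and of the 10 genes with the highest Pearson's r to it, each divided by its own mean in MYC low cells at 200 µM (log axis); lines join the groups to guide the eye. All lines are highest in MYC high cells at 10 µM, where Selenbp1 stands 264.2-fold above its value in MYC low cells at 200 µM.

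For Selenbp2 the closest were Sept6 (r = 0.989), a septin gene, Piga (0.9878), an enzyme of GPI anchor synthesis, Atp5c1 (0.984), an ATP synthase subunit, Mre11a (0.9827), a DNA repair nuclease, and Tmcc3 (0.98). Their ratios in MYC high cells were 1.52 to 2.76. None of them was among the 10 of Selenbp1, and 8 of the 11 Selenbp2 values behind r lie at or under 3 reads.

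Of 8 tested genes of thiol methylation, methionine transamination and salvage, 6 rose at 10 µM in MYC high cells, 1 fell and 1 did not pass. This list is wider than the formation of methanethiol. Of all tested genes 37.9% rose and 37.9% fell (median log2 difference 1.04 for the list, 0.00 for all genes). The Mettl7b gene encodes a thiol S-methyltransferase that can methylate hydrogen sulfide. It stood at 764.9 ± 67.8 normalized counts in MYC high cells at 10 µM and at 244.2 ± 1.21 at 200 µM (log2 1.64, SE 0.085, limma adjusted p = 1.8e-19). Mettl7b of MYC low cells fell from 290.9 ± 15.5 to 208.0 ± 14.4 (fell by 0.48 on the log2 scale). Its relative Mettl7a1, which has close copies, rose in both MYC states, by 1.96 and 0.58. Kyat1 and Kyat3, transaminases that can act on methionine or its keto acid, rose by 1.85 and 3.15 in MYC high cells. Kyat3 also rose in MYC low cells (0.81), and Kyat1 differed there by 0.20 without passing. Nit2 and Adi1, which act downstream in transamination and in salvage, rose by 0.44 and 0.24, and Mtap differed by 0.06 without passing. Il4i1, an amino acid oxidase that overlaps other genes, fell (log2 −1.0, limma adjusted p = 0.0499), a call lost under most alternatives. It had entered the test through MYC low cells at 200 µM, its highest group.

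The same list was split in MYC low cells, where 3 rose, 3 fell and 2 did not pass (median 0.15), beside 29.4% and 29.9% of all tested genes. Il4i1 is among the 3 that fell (log2 −1.25). It had entered the test through MYC low cells at 200 µM alone (the 8 other libraries averaged 9.64), so its fall was favoured by that entry. Between MYC states the list had 2 higher and 5 lower in MYC high cells at 200 µM (median −0.64), beside 36.8% and 37.6% of all genes. Without MYC high replicate 2 at 200 µM, 1 was higher. At 10 µM 4 were higher and 2 lower (median 0.45), beside 35.7% and 35.8% of all genes. The 2 lower calls became 1 without MYC high replicate 1 or 3, or without MYC low replicate 1 or 2, at 10 µM. The interaction was positive in 6 of 8 and negative in 1, beside 31.0% and 29.4% of all genes, and no negative call was left without MYC high replicate 3 at 200 µM. Mettl7a2, Mettl7a3 and Tat were too low to be tested.

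Hydrogen sulfide is 1 product of the reaction, and genes of its making and oxidation were split. In MYC high cells 7 of 12 tested rose at 10 µM, 4 fell and 1 did not pass (median 0.82), beside 37.9% of all tested genes in each direction. Without MYC high replicate 3 at 200 µM 2 fell. For MYC low cells 3 rose, 3 fell and 6 did not pass (median −0.02), beside 29.4% and 29.9%. Sqor, the mitochondrial enzyme that oxidizes sulfide, stood at 57.9 ± 10.5 at 10 µM and 30.9 ± 3.17 at 200 µM in MYC high cells (log2 0.87, SE 0.157, limma adjusted p = 5.59e-06). MYC low cells had Sqor at 157.1 ± 14.5 and 199.2 ± 4.99, higher than in MYC high cells in both media. Ethe1, the persulfide dioxygenase, rose by 1.37 in MYC high cells, from 107.6 ± 8.37 to 279.4 ± 11.5, and differed by −0.09 in MYC low cells without passing. Tst, thiosulfate sulfurtransferase, rose by 1.23 and 0.70, and Mpst, which makes sulfide from mercaptopyruvate, by 0.97 in MYC high cells. Suox, sulfite oxidase, rose by 0.78 and 0.47. Tstd3 rose by 1.88 and 0.96.

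Fmo1, a flavin monooxygenase known to oxidize hypotaurine to taurine, had the largest difference in this list. It entered the test through MYC high cells at 10 µM alone (the 8 other libraries averaged 6.41), so that difference had to appear. It had 74.1 ± 2.04 normalized counts in MYC high cells at 10 µM and 1.06 ± 1.5 at 200 µM. MYC low cells had 8.47 ± 1.68 and 7.92 ± 1.81. By pooled reads, 219 against 2, the ratio of the media in MYC high cells was 67.3 (exact 95% interval 18.4 to 559). For MYC low cells it was 1.08 (0.601 to 1.94). The fallers in MYC high cells were Csad (fell by 0.92), Gadl1 (fell by 0.59), Got1 (fell by 0.30) and Ado (fell by 0.18). Csad, Gadl1 and Ado are known for the route from cysteine to taurine, and Got2 differed by 0.04 in MYC high cells without passing. In MYC low cells Csad fell by 0.64 and Got1 fell by 0.95, and Gadl1, Ado and Got2 did not pass. Between MYC states the list had 5 higher and 5 lower in MYC high cells at 200 µM (median −0.08; all genes 36.8% and 37.6%), and 7 higher and 2 lower at 10 µM (median 0.52; all genes 35.7% and 35.8%). The interaction was positive in 7 of the 12, Fmo1 among them, and did not pass in the 5 others (all genes 31.0% positive and 29.4% negative). Fmo1 is also among the 7 that rose in MYC high cells and the 7 higher at 10 µM. Its part in each of these counts followed from how it entered the test. Without MYC high replicate 1 at 10 µM, 1 was negative. Cbs, Cth, Cdo1 and Tstd1 were too low to be tested.

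Genes that remove hydrogen peroxide and formaldehyde, the other products, moved in both directions. In MYC high cells 8 of 16 tested rose at 10 µM, 5 fell and 3 did not pass (median 0.40), beside 37.9% of all tested genes in each direction. The counts were equal in MYC low cells (median 0.08), beside 29.4% and 29.9%. Cat, the catalase gene, stood at 1702 ± 25.4 at 10 µM and 551.0 ± 8.47 at 200 µM in MYC high cells (log2 1.63, SE 0.045). Cat of MYC low cells stood at 2469 ± 99.5 and 1678 ± 53.3 (0.56, SE 0.040), so catalase was lower in the group with the most Selenbp1 than in MYC low cells at 10 µM. Of the peroxiredoxins and thioredoxins, which remove peroxides, Prdx1 (1.09), Txn1 (0.88), Prdx4 (0.79), Prdx5 (0.65), Prdx3 (0.42) and Prdx2 (0.31) rose in MYC high cells. Mitochondrial Txn2 fell by 0.49 there and Prdx6 fell by 0.23. In MYC low cells Prdx1 (0.84), Txn1 (0.45), Prdx4 (0.34), Prdx3 (0.19) and Prdx5 (0.17) rose as well, and Prdx2 did not pass. Txn2 and Prdx6 fell there too, by 0.41 and 0.20. Of the glutathione peroxidases, Gpx4 fell by 0.76, Gpx1 fell by 0.54 and Gpx8 differed by 0.37 without passing in MYC high cells. In MYC low cells Gpx4 fell by 0.49, Gpx1 rose by 0.18 and Gpx8 did not pass. Gpx3, Gpx7 and Aldh1l1 were too low to be tested. Among the aldehyde enzymes in MYC high cells Aldh2 rose by 0.71, Esd fell by 0.24, and Adh5, the main formaldehyde dehydrogenase, differed by 0.05 without passing. In MYC low cells Esd fell by 0.64, Adh5 fell by 0.33 and Aldh2 did not pass. Aldh1a1 rose in MYC low cells (44.3 ± 8.75 against 5.58 ± 1.96, log2 2.81, SE 0.474) and was near 1 normalized count or below in MYC high cells in both media. It entered the test through MYC low cells at 10 µM alone (the 8 other libraries averaged 2.6), so its rise there had to appear. Between MYC states the list had 4 higher and 10 lower in MYC high cells at 200 µM (median −0.26; all genes 36.8% and 37.6%), and 9 higher and 7 lower at 10 µM (median 0.14; all genes 35.7% and 35.8%). Its interaction was positive in 10 and negative in 3 (all genes 31.0% and 29.4%). Aldh1a1 is among the 8 that rose in MYC low cells, the 7 lower at 10 µM and the 3 negative interactions. Its part in each of these counts followed from how it entered the test.

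**Figure D5:**
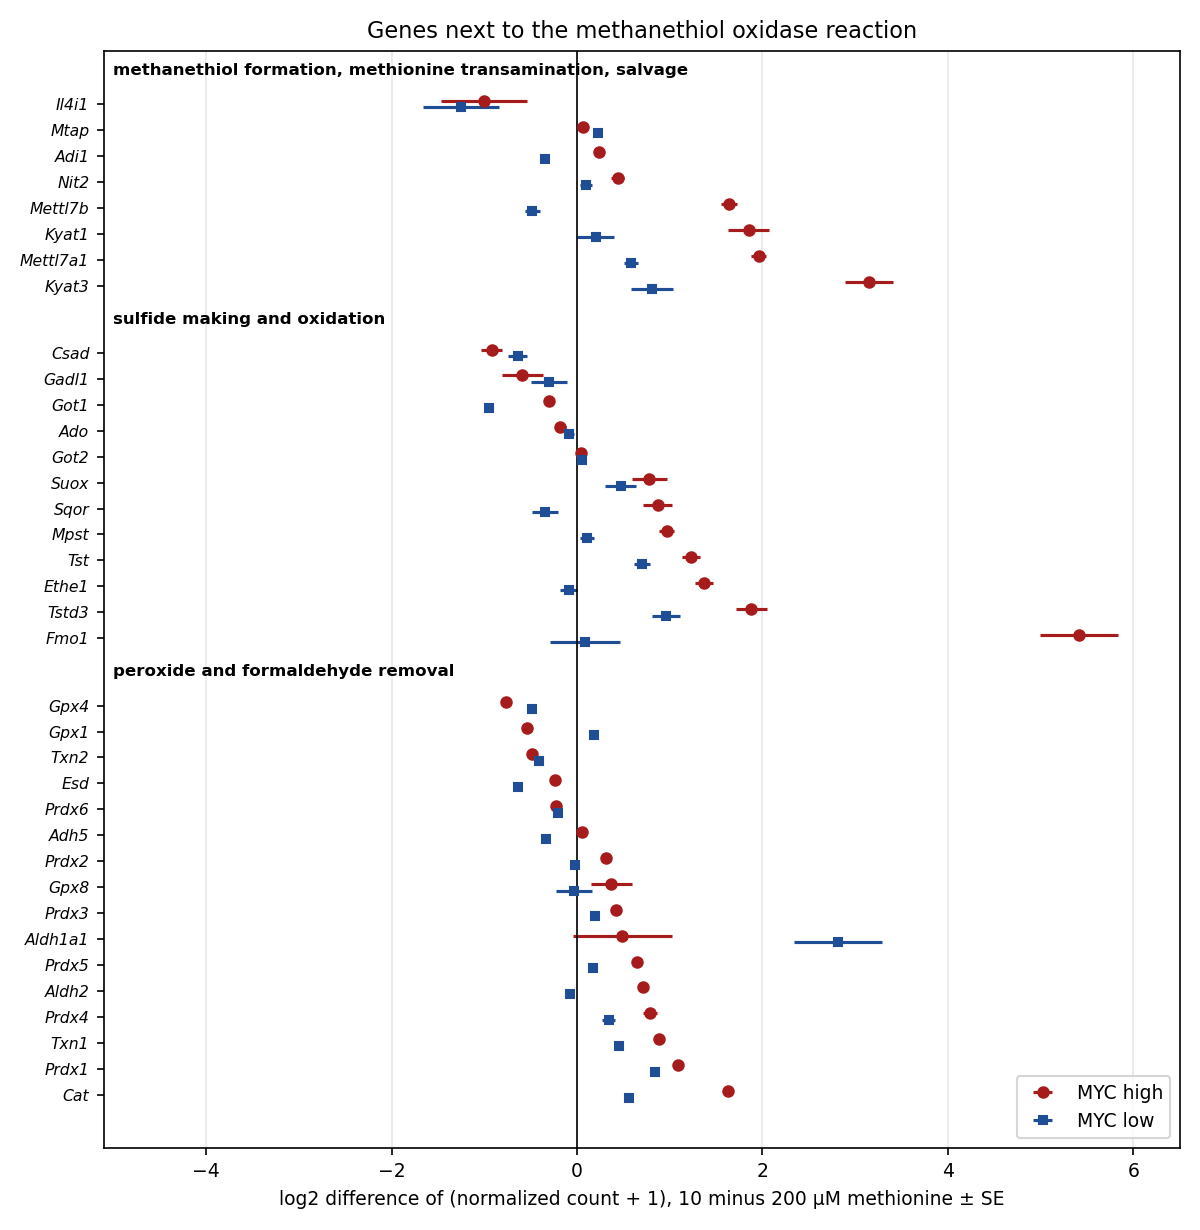
Log2 difference of (normalized count + 1) between 10 and 200 µM methionine (x axis, ± SE) for each tested gene of 3 lists next to the methanethiol oxidase reaction, in MYC high (circles) and MYC low cells (squares). Fmo1 stands apart at 5.41 in MYC high cells and 0.09 in MYC low cells, and Mettl7b, Adi1, Sqor and Gpx1 have passed differences of opposite sign.

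Selenoproteins hold selenocysteine, as the pair does not. Of 18 tested of 24, in MYC high cells 6 rose and 9 fell at 10 µM (median −0.16), beside 37.9% of all tested genes in each direction. For MYC low cells 9 rose and 6 fell (median 0.12), beside 29.4% and 29.9%. Selenow fell by 1.59, Selenot fell by 0.66 and Gpx4, named above, fell by 0.76 in MYC high cells, and Selenom, an endoplasmic reticulum selenoprotein, rose by 1.78. Each moved the same way in MYC low cells (Selenow −0.52, Selenot −0.11, Gpx4 −0.49 and Selenom 0.65). The largest rise, named after its value was seen, was that of Selenop, the selenium carrier selenoprotein P. It was at 0 in both MYC high libraries at 200 µM and at 10.8 ± 2.1 (SD, n = 3) at 10 µM. In MYC low cells it rose from 6.19 ± 4.71 to 42.3 ± 6.31 (log2 2.77, SE 0.42). Selenop entered the test through MYC low cells at 10 µM alone (the 8 other libraries averaged 6.38), so its rise there had to appear. It is counted among the 9 that rose in those cells and among the 10 lower in MYC high cells at 10 µM. Its part in both counts followed from how it entered the test. Selenop also overlaps Ccdc152 on the other strand. Msrb1, a methionine sulfoxide reductase, named likewise, rose by 1.47 in MYC high cells and 0.79 in MYC low cells. Among the others, in MYC low cells, Txnrd1, a thioredoxin reductase, fell by 0.70, Txnrd3 fell by 1.33 and Selenos rose by 0.61. In MYC high cells Txnrd1 fell by 0.38, Txnrd3 fell by 1.37 and Selenos fell by 0.35. Between MYC states 6 were higher and 7 lower in MYC high cells at 200 µM (median −0.01; all genes 36.8% and 37.6%) and 6 higher and 10 lower at 10 µM (median −0.22; all genes 35.7% and 35.8%). The interaction was positive in 6 and negative in 9 (all genes 31.0% and 29.4%).

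Of 12 tested genes that handle selenium, 6 rose and 5 fell in MYC high cells at 10 µM (median 0.09), beside 37.9% of all tested genes in each direction. For MYC low cells 2 rose and 6 fell (median −0.15), beside 29.4% and 29.9%, and 1 rose without MYC low replicate 1 at 200 µM or replicate 3 at 10 µM. Scly, which releases selenium from selenocysteine, rose by 1.20 in MYC high cells and 0.45 in MYC low cells. Lrp8, a receptor for selenoprotein P, rose by 0.77 in MYC high cells and 0.18 in MYC low cells. Lrp2, another such receptor, named after its values were seen, fell by 1.21 in MYC high cells and by 0.98 in MYC low cells. Sars, the seryl-tRNA synthetase gene that also charges the selenocysteine tRNA, fell by 0.59 and 0.72. Sepsecs, the last enzyme of selenocysteine synthesis, fell by 0.74 and 0.42. Between MYC states 6 were higher and 2 lower in MYC high cells at 200 µM (median 0.13; all genes 36.8% and 37.6%), and 8 higher and 2 lower at 10 µM (median 0.44; all genes 35.7% and 35.8%). The interaction was positive in 7 and negative in 2 (all genes 31.0% and 29.4%), with 1 negative without MYC high replicate 2 at 200 µM.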

How the data were processed

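Per the labels' protocols, total RNA came from a Qiagen kit and went into NEBNext Ultra II libraries. The deposited values are a signal, namely counts of reads per gene that the authors normalized, per the labels. STAR, HTSeq, DESeq2, FastQC, SAMtools and fastp appear without versions in the submitters' processing notes, with the build GRCm39. The strand setting, the read length and how reads that fit 2 genes were handled were not given in the sources used here. Named genes whose exons overlap another gene on the other strand also include Kyat3, Nit2, Ethe1, Tstd3, Csad, Gadl1, Got2, Prdx2, Prdx5 and Aldh2. Further ones are Scly, Gpi1, Aldoa, Impa2, Gys1, Tnpo3, Sept6, Mre11a and Pi4kb. The part of such reads in their values was not tested. Each library's deposited values were whole multiples of 1 step, and 100% came out as whole reads within 0.001, with size factors of 0.875 to 1.13. Reads on genes numbered 10858936 to 13085689 per library.

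GENCODE M21 (GRCm38) gave symbols to 52083 of 55416 identifiers, a build other than that of the files, so no coordinates of the files' genes are given; the promoter sequences and their coordinates are those of the RefSeq table, build GRCm38.p6. Genes whose normalized counts averaged 10 or more were tested on log2(value + 1) with limma 3.58.1 in R 4.3.3 (trended empirical Bayes, all 4 groups in 1 fit, 7 residual and 29 prior degrees of freedom). Benjamini-Hochberg adjustment ran over the 12909 genes within each comparison, at 0.05. A call is an adjusted p under 0.05, and a list is described by counts of calls and its median. The labels do not say whether libraries came from separate cultures, so p-values measure the spread between these libraries. Same-numbered libraries did not deviate together (r −0.049 to 0.026 over 15 pairs, −0.046 to 0.049 over 30 pairs with other numbers). Alternatives were other pseudocounts and filters, library total scaling, edgeR 4.0.16 and DESeq2 1.42.0 on the recovered counts, the replicate block and leaving out each library. The script was tested on simulated data. Named genes were drawn from the pair, Myc, 3 reaction lists, up to 4 per comparison of 2 selenium lists, 3 neighbours on each side, and 10 and 5 genes most like the pair; others are marked as named after their values were seen. The members and lists were chosen with earlier results of these data known. Protein sequences were not used here.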

Additional observations from a re-analysis of the deposited data

Results flagged for a closer look

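For 7 of the listed genes, the methionine difference (10 minus 200 µM) passed limma in opposite directions in MYC high and MYC low cells, and the difference between the 2, an interaction, passed as well. Where 2 differences of opposite sign have passed, their interaction is nearly bound to pass, so it is no further support. That is 11.1% of the 63 listed genes tested, beside 872 (6.75%) of all 12909 tested genes. Mettl7b had an interaction of 2.12 on the log2 scale (1.64 in MYC high, −0.48 in MYC low cells, limma adjusted p = 2.9e-18). Sqor had one of 1.22 (0.87 and −0.34), Adi1 of 0.59 (0.24 and −0.35) and Sephs2, a selenophosphate synthetase gene, of 0.60 (0.36 and −0.24). The other 3 were negative: Gpx1 at −0.72 (−0.54 and 0.18), Selenoh at −0.76 (−0.49 and 0.27) and Selenos at −0.96 (−0.35 and 0.61). Sephs2 and Selenoh are named here for this pattern, after their values were seen. Mettl7b overlaps Itga7 and Sephs2 overlaps Gm44729 on the other strand, and the part of those reads in the result was not tested.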

How the results depend on the processing

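The fitted size of the pair's rise depends on the pseudocount and the tool, since the libraries it is set against hold few reads. Between MYC states at 10 µM the log2 difference of Selenbp1 was 6.43 with a pseudocount of 5 and 7.0 by DESeq2. That of Selenbp2 was 6.26 with a pseudocount of 0.5, 3.86 with 5, 6.72 by edgeR and 6.98 by DESeq2. Between media in MYC high cells Selenbp1 gave 7.23 with a pseudocount of 5 and 8.42 by DESeq2, and Selenbp2 gave 3.77 with 5; the Selenbp2 interaction was 3.70 with 5. Leaving out 1 library moved these 2 Selenbp2 values over 4.63 to 6.27 and 4.34 to 5.99. At 200 µM, leaving out 1 library at a time moved the log2 difference between MYC states from −0.61 to 0.22 for Selenbp1, with a reversed sign without MYC high replicate 3 (0.04) and without MYC low replicate 2 (0.22), and from −0.34 to 1.30 for Selenbp2, which had 3 reads in all there. The rise of Selenbp1 in MYC low cells passed under every alternative run, at 0.62 to 1.45 with 1 library left out, 1.04 by edgeR (adjusted p = 0.0299) and 1.07 by DESeq2 (adjusted p = 0.0349). With the replicate block it was 1.06 (limma adjusted p = 0.000676), and the block gave 9495, 9214, 9668, 7653 and 7663 calls against 9600, 9232, 9787, 7666 and 7798 without it for the 5 comparisons (MYC states at 200 and 10 µM, media in MYC high and MYC low cells, interaction). The block changed no call of the pair. Every count of genes called stayed within 1.5 times its value under all alternatives. Of the counts for the 5 lists, 918 stayed within 1.5 times and 32 did not, and no called gene of a list changed its direction. Selenbp2 has no value where a mean of at least 50 was required. Depth limits Selenbp2 most: outside MYC high cells at 10 µM it rests on 5 reads.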

Other observations

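Besides the pair, 8 other tested genes had every MYC high library at 10 µM at least 10 times above the highest library of the other groups, named here after their values were seen. Mgarp, a mitochondrial protein gene, had a gap of 27.3-fold, Chrna4, a nicotinic receptor subunit, of 23.0-fold and Lrp2bp of 20.3-fold. Ankrd37 followed at 16.1-fold, Bnip3 and the overlapping Gm45507 at 14.1-fold each, Aldoc, aldolase C, at 11.3-fold and Atp7b, a copper transporter of the liver, at 10.6-fold.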
